A study of Homo sapiens with 6 samples.

Results

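FMR1, FXR1 and FXR2 encode the fragile X family of RNA-binding proteins, and the C-to-U edits on their own mRNAs were examined in 6 long-read libraries of RBFOX2-INSCRIBE and its controls. All listed edits were taken whose isoform belongs to one of these 3 genes in GENCODE release 44, which gave 312 of the 839700 listed pairs of isoform and edited position. They fell on 7 isoforms, of which 3 belonged to FMR1, 3 to FXR1 and 1 to FXR2, among 7684 genes with an edited C. The cells were HEK293T in the sample titles and HEK293XT in the cell line field, both names for derivatives of the human embryonic kidney line HEK293, and all were methanol-fixed. In RBFOX2-INSCRIBE (2 libraries, replicates 1 and 2), a rabbit antibody against the splicing regulator RBFOX2 recruited Apo1-Nb, a fusion of the cytidine deaminase APOBEC1 with an anti-rabbit nanobody, and the enzyme edited cytosines of RNA close to RBFOX2. The enzyme-only control (2 libraries, replicates 2 and 3 by their titles) received Apo1-Nb and no antibody, and the buffer-only control (2 libraries, replicates 1 and 2) received neither. Replicates were made on separate slides of cells of the same line, so that p-values measure the spread between slides.

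FMRP, the product of FMR1, binds mRNAs through its KH domains and an RGG box, travels with them in ribonucleoprotein granules and represses their translation, and loss of FMR1 expression causes fragile X syndrome. FXR1 and FXR2 are autosomal paralogs that share this domain layout and associate with FMRP and with each other. RBFOX2 binds UGCAUG in pre-mRNA, where it governs alternative exons, and in 3′ UTRs of mature mRNA. The comparisons therefore asked on which family members, isoforms and transcript regions edits gathered when the enzyme was directed to RBFOX2.

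UGCAUG was found once in the exons of FMR1, in the 3′ UTR at chrX:147949516-147949521 (hg38, plus strand), and in all 3 listed FMR1 isoforms. It was found 0 times in the listed isoforms of FXR1 and FXR2. The search read the isoform's own strand only, since the edits are on RNA. Among all 9808 listed isoforms 55.7% held a UGCAUG, and among the 1156 isoforms within 10% of the length of FMR1-207 60.4% did. The 30 bases from the motif onwards are shown because they hold the most strongly edited FMR1 site, with the motif and the Cs edited in RBFOX2-INSCRIBE in capitals. The 4 runs after it surround the other FMR1 sites that both RBFOX2-INSCRIBE libraries edited and no control library did, with the edited C in capitals.
FMR1 chrX:147949516-147949545: UGCAUGcuuuccauauuuuuuuCcuuaCau
FMR1 chrX:147949539-147949559: cuuacauaaaCaucagguuag
FMR1 chrX:147949352-147949372: uugucauuuuCauuagcaaaa
FMR1 chrX:147949393-147949413: uuuuuuauauCuuggcaggua
FMR1 chrX:147949768-147949788: ccaauuuuaaCuuagagcuuu
For FXR1, the first 2 runs surround 3′ UTR sites edited in both RBFOX2-INSCRIBE libraries and in no control, the third a coding site of the same kind, and the fourth a 3′ UTR site that controls edited as well (hg38, plus strand, edited C in capitals).
FXR1 chr3:180976880-180976900: uaccuugaggCuuuguuuggu
FXR1 chr3:180977042-180977062: uguuagucuuCaguagaguau
FXR1 chr3:180948371-180948391: ugugacgcuaCuuacaaugaa
FXR1 chr3:180977064-180977084: uuuuuuuuuuCcuuuuuuuuu
The last of these lies in a run of uracils. An A or a U directly precedes the edited C in every run shown except that around chr3:180976890, where a G does.

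The files list, for each isoform and position, the fraction of reads edited, and hold no read numbers. Depth is therefore not listed, no interval was computed, and more editing was not told apart from more reads over the same RNA. The whole libraries listed 211369 and 216646 pairs in RBFOX2-INSCRIBE, 91265 and 162159 with enzyme only and 79880 and 78381 with buffer only, and the 3 genes held 68 and 107, 31 and 52, and 28 and 26 of them. The ratio of C-to-U edits to G-to-A changes on the isoform, which APOBEC1 does not make, ranged from 29.7 to 31.1 in RBFOX2-INSCRIBE, from 19.5 to 24.8 with enzyme only and from 11.4 to 11.5 with buffer only. Expression of RBFOX2 and of cell line markers was not analysed here.

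FMR1 had about 5 times as many edited Cs with the RBFOX2 antibody as with the enzyme alone, FXR1 fewer than 2 times as many, and FXR2 had no more than the enzyme-only control. FMR1, on chrX:147911919-147951125, has 736 exonic Cs, of which RBFOX2-INSCRIBE edited 30 and 38, enzyme-only 4 and 9, and buffer-only 10 and 6 (replicates in order, here and below). Both RBFOX2-INSCRIBE libraries lay above all 4 controls, and the controls overlapped. FXR1, on chr3:180868141-180982753, had 29 and 55 edited Cs of 1423 in RBFOX2-INSCRIBE, 14 and 34 with enzyme only and 14 and 14 with buffer only. Its RBFOX2-INSCRIBE and enzyme-only libraries overlapped, since enzyme-only replicate 3 exceeded RBFOX2-INSCRIBE replicate 1. FXR2, on the minus strand of chr17:7591230-7614897, had 3 and 7 edited Cs of 841 in RBFOX2-INSCRIBE, 11 and 6 with enzyme only and 1 and 2 with buffer only, so that its lowest values were those of the libraries without enzyme.

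**Figure D1:**
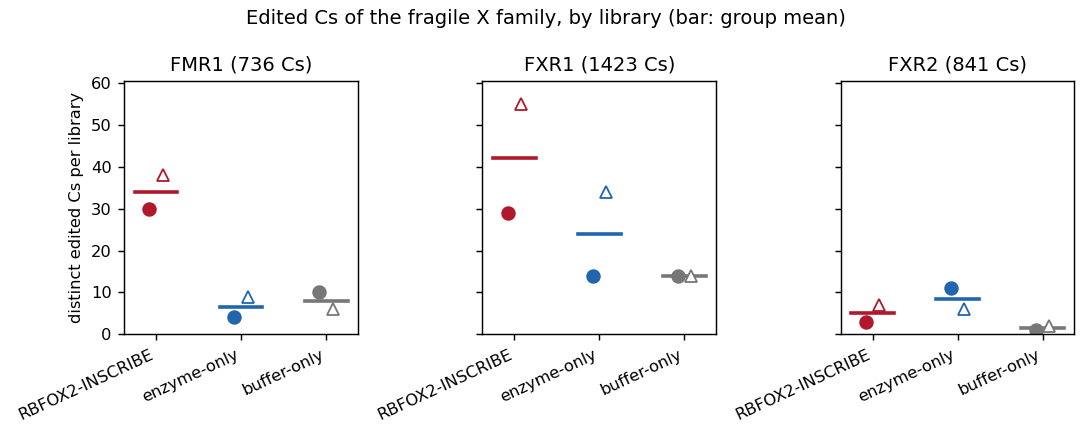
Distinct edited Cs (y axis, number per library) of FMR1, FXR1 and FXR2 in each group (x axis). Each marker is a library, the filled circle the lower-numbered replicate and the open triangle the higher-numbered one, and the bar is the mean of 2. The FMR1 values of 30 and 38 stand above every control, and the FXR2 values of 3 and 7 do not.

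As editsC, the share of exonic Cs that were edited, FMR1 stood at 4.62% ± 0.769 (SD, n = 2) in RBFOX2-INSCRIBE, 0.883% ± 0.480 (SD, n = 2) in the enzyme-only control and 1.09% ± 0.384 (SD, n = 2) with buffer only. The ratio of mean edited Cs between RBFOX2-INSCRIBE and enzyme-only was 5.23 for FMR1, 1.75 for FXR1 and 0.588 for FXR2. Against the buffer-only control the ratios were 4.25, 3.0 and 3.33. With limma across 5088 genes, the log2 difference between RBFOX2-INSCRIBE and enzyme-only was 2.39 (SE 0.73, adjusted p = 0.127) for FMR1, 0.86 (SE 0.73, adjusted p = 0.480) for FXR1 and -0.75 (SE 0.95, adjusted p = 0.626) for FXR2. None of the 3 passed an adjusted p of 0.05, and 0.118% of all genes did so in the higher direction, while 862 genes had an unadjusted p under 0.05. The FMR1 difference ranked 253 of 5088, where the median gene had 0.85, and the FXR1 difference equalled that median to within 0.01. Both FMR1 libraries above both enzyme-only libraries is a pattern that 51.8% of the tested genes showed.

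Against the buffer-only control, where most genes had more edits, FMR1 and FXR1 were higher. The log2 difference was 2.05 for FMR1 (SE 0.40, limma adjusted p = 0.00437) and 1.48 for FXR1 (SE 0.45, limma adjusted p = 0.0254). Of all 4804 genes tested 61.1% were called higher in this comparison and 80.6% had both libraries above both, so these calls do not set the 2 genes apart. The median over all genes was 1.54, below the FMR1 value and above that of FXR1. FXR2, with a mean below 5 edited Cs, was not tested there. Between the 2 controls no member was called: the log2 difference of enzyme-only minus buffer-only was -0.34 for FMR1 (limma adjusted p = 0.843), 0.63 for FXR1 (limma adjusted p = 0.682) and 2.16 for FXR2 (SE 0.97, limma adjusted p = 0.265), against a median of 0.69 over 4209 genes, 0.546% of which were called higher. FXR2 was the only member whose enzyme-only libraries both exceeded both buffer-only libraries, as did 44.4% of the tested genes. It met the filter of a mean of 5 there only through the enzyme-only libraries, with group means of 8.5 and 1.5.

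Taken alone, the numbers of edited Cs could not reach p under 0.05. An exact two-sided permutation test of FMR1 gave p = 0.333 against either control, the smallest that 2 libraries against 2 allow, and p = 0.133 against all 4 controls, the smallest for 2 against 4. For FXR1 and FXR2 the exact two-sided permutation p against all 4 controls was 0.267 and 0.933. The calls for FMR1 and FXR1 against buffer-only were lost once all libraries were scaled to a common number of edited Cs, with limma adjusted p of 0.362 and 0.984. They were also lost without RBFOX2-INSCRIBE replicate 1 or 2, with limma adjusted p of 0.157 to 0.180 for FMR1 and 0.0563 to 0.0709 for FXR1. The log2 differences were then 2.22 and 1.88 for FMR1 and 1.94 and 1.02 for FXR1. At an unchanged log2 difference of 1.48, the FXR1 call was lost as well without buffer-only replicate 1 (limma adjusted p = 0.0971) or 2 (0.0941), and with all 3 groups in 1 fit (0.0662), and at 1.35 with edited fractions of at least 0.02 (0.160). Without enzyme-only replicate 3, the one with more edits, FMR1 passed against enzyme-only (log2 difference 2.93, limma adjusted p = 0.0261), as did 1690 of the 5115 genes tested in that setting. Per 10000 edited Cs of the library, FMR1 had 1.5 and 1.85 in RBFOX2-INSCRIBE, 0.465 and 0.585 with enzyme only and 1.38 and 0.840 with buffer only. On the same scale FXR1 had 1.45 and 2.67, 1.63 and 2.21, and 1.93 and 1.96, with no separation of any groups.

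The excess of FMR1 edits with the RBFOX2 antibody lay in the 3′ UTR. Regions were those of FMR1-207, the most edited FMR1 isoform, and edits of every FMR1 isoform at these positions were counted. Of the 246 Cs of this 3′ UTR, 25 and 32 were edited in RBFOX2-INSCRIBE, which is 10.2% and 13.0%. The enzyme-only libraries edited 2 and 9 of them, 0.813% and 3.66%, and the buffer-only libraries 4 and 6, 1.63% and 2.44%. In the coding sequence, 4 and 4 of 312 Cs were edited in RBFOX2-INSCRIBE, 2 and 0 with enzyme only and 4 and 0 with buffer only. The 3′ UTR values of RBFOX2-INSCRIBE lay above all controls, while its coding values overlapped with theirs, all at 4 or fewer edited Cs. Over whole genes, 51.8% had both RBFOX2-INSCRIBE libraries above both enzyme-only libraries and 80.6% above both buffer-only libraries. The same share over 3′ UTRs was not computed. Of the edited Cs within the exons of FMR1-207, 86.2% and 88.9% lay in the 3′ UTR in RBFOX2-INSCRIBE, where 40.9% of its Cs lie. In the controls, with 10 or fewer edited Cs per library, this share ran from 50% to 100%. No member had an edited C in the 5′ UTR in any library.

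**Figure D2:**
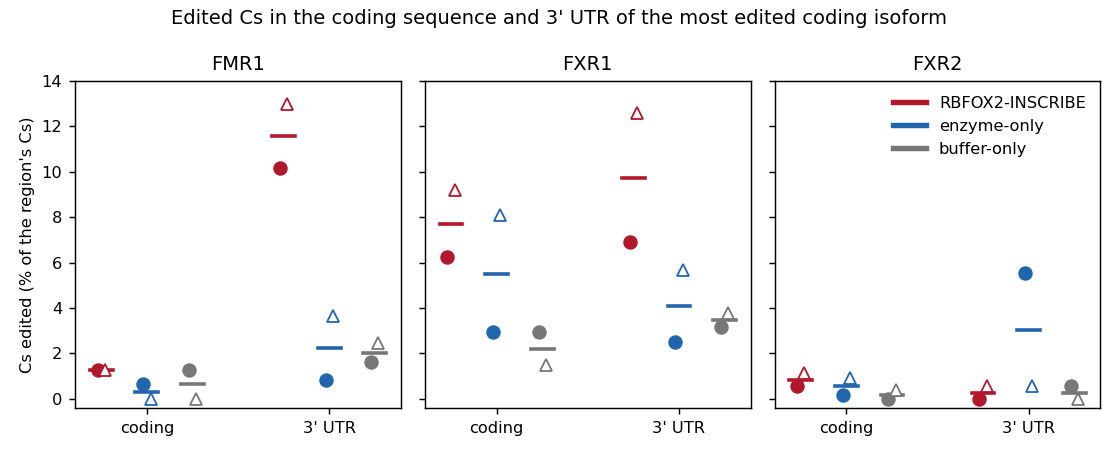
Share of Cs edited (y axis, % of the Cs of the region) in the coding sequence and in the 3′ UTR of the most edited coding isoform of each gene. Edits of all isoforms of the gene at these positions are counted. Markers are libraries (filled circle, lower-numbered replicate; open triangle, higher-numbered replicate) and bars are means of 2. FMR1 separates RBFOX2-INSCRIBE from the controls in the 3′ UTR, at 10.2% and 13.0%, and not in the coding sequence, and FXR2 has its highest value, 5.52%, in the 3′ UTR of 1 enzyme-only library.

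Next to the FMR1 UGCAUG, edits were listed in both RBFOX2-INSCRIBE libraries and in no control. Within 50 nt of the motif on either side, 3 and 4 of 17 Cs were edited in RBFOX2-INSCRIBE, and 0 in each of the 4 control libraries. That is 17.6% and 23.5% of the Cs, where the rest of the 3′ UTR had 9.61% and 12.2% edited. In the controls the rest of the 3′ UTR had 0.873% and 3.93% (enzyme-only) and 1.75% and 2.62% (buffer-only). At such rates 17 Cs would hold few edits or none, so the window could not be told apart from the rest in the controls. Sites near the motif made up 10% and 10.5% of all FMR1 edited Cs in RBFOX2-INSCRIBE, where 2.31% of all exonic Cs, coding ones included, lie in the window. Of the 4963 UGCAUG in exons of listed isoforms that had an edited C within 50 nt in any library, 9.87% were edited in both RBFOX2-INSCRIBE libraries and in no control. At least 3 edited Cs in each RBFOX2-INSCRIBE library and none in a control, as at FMR1, was found for 83 of them, or 1.67%; this rule was set after the FMR1 values were seen. On FMR1-207 alone, windows of 25, 100 and 200 nt held 2 and 3, 4 and 5, and 9 and 7 edited Cs in RBFOX2-INSCRIBE, and the first control edit, in enzyme-only replicate 3, came in at 200 nt.

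The strongest of these sites was chrX:147949543, 27 nt after the first base of the motif. It was edited at 2.56% in replicate 1 and 15.2% in replicate 2 of RBFOX2-INSCRIBE on FMR1-207, and at 13.6% in replicate 2 on FMR1-208. Of all edits listed in replicate 2, 0.812% were at least as high as 15.2%. For the highest FMR1 edit of each control library, this share of its own library ran from 2.27% to 5.48%. For the highest FXR1 edit of each control library it ran from 1.07% to 5.29%. At chrX:147949549, FMR1-207 was edited at 2.56% and 6.33% in replicates 1 and 2, and FMR1-208 at 5.26% in replicate 1. At chrX:147949538, FMR1-207 was edited at 2.56% and 1.27%. The fourth site, chrX:147949503, lies 13 nt before the motif and was edited at 2.53% in replicate 2 only. Thus 3 of the 4 sites followed the motif, and the spread between the replicates at the strongest of them exceeded 5-fold.

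**Figure D3:**
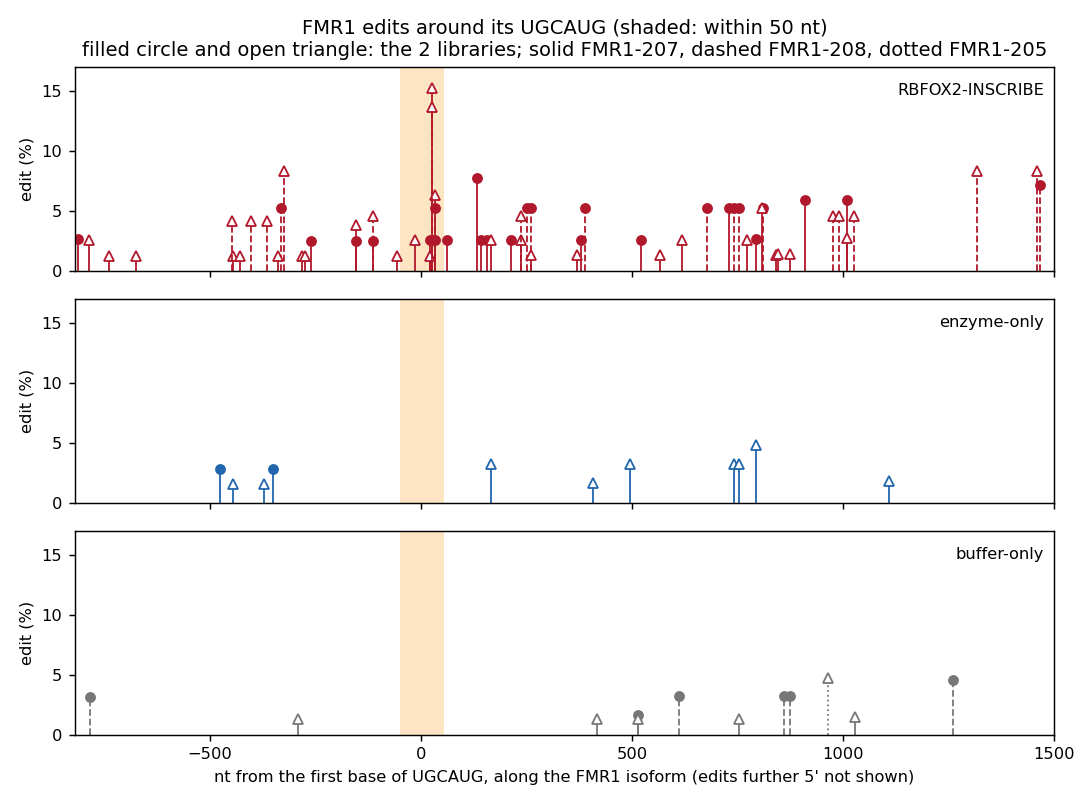
Edited fraction (y axis, % of reads) of FMR1 sites by distance from the first base of the UGCAUG along the isoform (x axis, nt), with a panel for each group. Filled circles and open triangles are the lower-numbered and higher-numbered replicate, solid, dashed and dotted stems are FMR1-207, FMR1-208 and FMR1-205, and the shaded band is the 50 nt window; edits further upstream are not shown. The window holds edits of up to 15.2% in RBFOX2-INSCRIBE and none in the control panels.

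Elsewhere in the 3′ UTR, 3 more sites were found in both RBFOX2-INSCRIBE libraries and in no control. The site at chrX:147949362, 154 nt before the motif, was edited at 2.5% and 3.8% on FMR1-207. The site at chrX:147949403 was edited at 2.5% on FMR1-207 in replicate 1 and at 4.55% on FMR1-208 in replicate 2. The site at chrX:147949778 was edited at 5.26% on FMR1-208 in replicate 1 and at 1.28% on FMR1-207 in replicate 2. In all, 6 of the 83 distinct FMR1 sites, or 7.23%, met this pattern, as did 4.33% of all distinct sites of the series. No FMR1 site was common to the enzyme-only libraries, and 1, chrX:147950030, was common to the buffer-only libraries. The other motifs searched, GCAUG and GCACG, gave no such pattern on FMR1: apart from the GCAUG inside UGCAUG, the 2 GCAUG had 0 edited Cs within 50 nt in all libraries, and the 2 GCACG had 1 or 2 in some RBFOX2-INSCRIBE and some control libraries. Of all listed isoforms 88.1% held a GCAUG and 59.3% a GCACG.

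FMR1 edits were divided between a pair of long coding isoforms with the same motif. FMR1-207 (ENST00000439526, 3699 nt, 601 Cs) had 20 and 27 edited Cs in RBFOX2-INSCRIBE, 4 and 9 with enzyme only and 4 and 5 with buffer only. FMR1-208 (ENST00000440235, 4271 nt, 697 Cs) had 11 and 12 in RBFOX2-INSCRIBE, none in both enzyme-only libraries, and 6 and 0 in the buffer-only libraries. FMR1-205 (ENST00000370475, 4441 nt) had a single edited C, in buffer-only replicate 2. Both main isoforms thus had all their RBFOX2-INSCRIBE values above all their controls, and buffer-only replicate 1 alone edited FMR1-208 among the controls. As editsC, FMR1-207 stood at 3.91% ± 0.824 (SD, n = 2) and FMR1-208 at 1.65% ± 0.101 (SD, n = 2) in RBFOX2-INSCRIBE. This comparison is open to the number of reads of each isoform, which is not listed.

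Against enzyme-only, neither FMR1 isoform passed the limma test across 5717 isoforms, of which 0.0525% were called higher. FMR1-207 had a log2 difference of 1.86 (SE 0.72, adjusted p = 0.253) and FMR1-208 an adjusted p of 0.186, with no fold given because both enzyme-only libraries listed no edit. FMR1-208 met the filter of a mean of 5 only through RBFOX2-INSCRIBE, with a mean of 11.5 beside 0 in enzyme-only and 3 in buffer-only. Its adjusted p values in this paragraph, those with a library left out included, carry that selection. Both libraries lay above both enzyme-only libraries in 51.1% of the isoforms. Against buffer-only, FMR1-207 was higher by 2.25 (SE 0.42, limma adjusted p = 0.00341), and FMR1-208 had a log2 difference of 2.73 (SE 1.11, limma adjusted p = 0.0634). In that comparison 60.0% of 5362 isoforms were called higher and 79.9% did not overlap, with a median of 1.57. There FMR1-207 too met the filter only through RBFOX2-INSCRIBE, with a mean of 23.5 beside 4.5 in buffer-only. Its adjusted p values against buffer-only carry that selection. The call for FMR1-207 was lost after scaling (limma adjusted p = 0.269) and without RBFOX2-INSCRIBE replicate 1 or 2 (0.105 to 0.120), while FMR1-208 passed without buffer-only replicate 1 (0.0123) and with a pseudocount of 1 (0.0459). Its log2 difference was 0.88 without buffer-only replicate 2 (limma adjusted p = 0.255), so that the value rested on which buffer-only library was kept. Without enzyme-only replicate 3 both isoforms passed against enzyme-only (limma adjusted p = 0.0329 and 0.0252), as did 1856 of 5750 isoforms. A difference in gain between the isoforms was not tested.

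**Figure D4:**
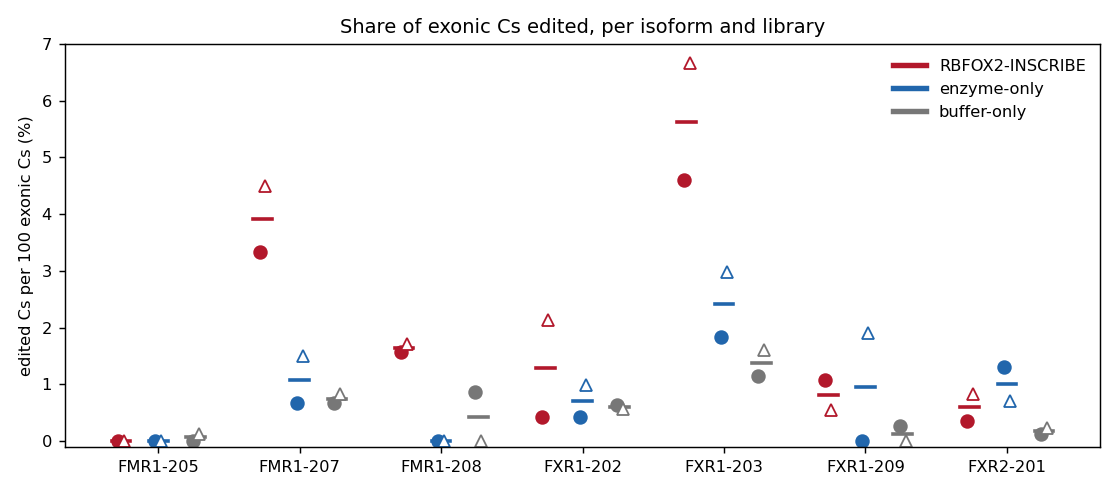
EditsC (y axis, % of exonic Cs edited) of the 7 listed isoforms (x axis), with a marker for each library (filled circle, lower-numbered replicate; open triangle, higher-numbered replicate) and a bar for the mean of 2. FMR1-207 and FXR1-203 have the highest RBFOX2-INSCRIBE means, 3.91% and 5.63%, and FMR1-208 is at 0 in both enzyme-only libraries.

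Few edits fell on sequence that only some FMR1 isoforms carry. The 75 nt at chrX:147944869-147944943 that FMR1-207 has and FMR1-208 skips had 1 edited C in RBFOX2-INSCRIBE replicate 2 and 1 in enzyme-only replicate 2, of 15 Cs. The last 489 nt of FMR1-208, chrX:147950637-147951125, past the 3′ end of FMR1-207, had 1 and 2 edited Cs in RBFOX2-INSCRIBE and 1 in buffer-only replicate 1, of 69 Cs. The 51 nt at chrX:147948683-147948733 that FMR1-208 has and FMR1-207 lacks had 1 edited C, in buffer-only replicate 1. Nearly all FMR1 edits therefore lay in shared sequence, and 7 of its 83 distinct sites were listed for more than 1 isoform.

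FXR1 was edited in its coding sequence as well as in its 3′ UTR, and its gain over the enzyme alone was near that of the median gene. In FXR1-203 (ENST00000445140, 2651 nt, 435 Cs), its most edited isoform, 20 and 29 Cs were edited in RBFOX2-INSCRIBE, 8 and 13 with enzyme only and 5 and 7 with buffer only. These groups did not overlap. Among the isoforms tested, 51.1% were likewise higher without overlap when compared with enzyme-only, and 79.9% when compared with buffer-only. The log2 difference was 1.2 against enzyme-only (SE 0.66, limma adjusted p = 0.337) and 1.94 against buffer-only (SE 0.38, limma adjusted p = 0.00399). Since 60.0% of the isoforms tested against buffer-only were called higher, the call does not set FXR1-203 apart. The call against buffer-only was lost after scaling (limma adjusted p = 0.438) and without RBFOX2-INSCRIBE replicate 1 or 2 (0.136 to 0.157). Enzyme-only exceeded buffer-only by 0.74 in FXR1-203 (SE 0.71, limma adjusted p = 0.616), in a comparison where 0.811% of isoforms were called higher and 44% had both libraries above both.

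FXR1-202 (ENST00000357559, 8343 nt, 1404 Cs), which extends 5598 nt beyond the 3′ end of FXR1-203, had 6 and 30 edited Cs in RBFOX2-INSCRIBE, 6 and 14 with enzyme only and 9 and 8 with buffer only. Its RBFOX2-INSCRIBE replicate 1 was no higher than the controls, and replicate 2 alone set the group mean. The log2 difference against enzyme-only was 0.54 (SE 1.00, limma adjusted p = 0.742) and turned to -0.58 without RBFOX2-INSCRIBE replicate 2. The retained-intron isoform FXR1-209 (ENST00000472339, 2130 nt, 368 Cs) had 4 and 2, 0 and 7, and 1 and 0 edited Cs, below the mean of 5 needed for a test.

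Regions were those of FXR1-203, and edits of every FXR1 isoform at these positions were counted. Of 272 coding Cs, 17 and 25 were edited in RBFOX2-INSCRIBE (6.25% and 9.19%), 8 and 22 with enzyme only (2.94% and 8.09%) and 8 and 4 with buffer only (2.94% and 1.47%). In the 3′ UTR, 11 and 20 of 159 Cs were edited in RBFOX2-INSCRIBE (6.92% and 12.6%), 4 and 9 with enzyme only (2.52% and 5.66%) and 5 and 6 with buffer only (3.14% and 3.77%). Among the control sites counted there, chr3:180976270 and chr3:180976288 were listed for FXR1-202, in which they are coding. The lowest RBFOX2-INSCRIBE value of the 3′ UTR, 11, lay above the highest control value, 9, while the coding values overlapped with enzyme-only. Over whole genes, 51.8% did not overlap with enzyme-only and 80.6% with buffer-only in the same direction. The share of these edited Cs in the 3′ UTR was 39.3% and 44.4% in RBFOX2-INSCRIBE, close to the 36.6% of Cs there, and 33.3% and 29% with enzyme only.

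The part of the 3′ UTR that only FXR1-202 has, chr3:180977156-180982753, had 1 and 10 edited Cs of 950 in RBFOX2-INSCRIBE, 2 and 2 with enzyme only and 1 and 4 with buffer only. In RBFOX2-INSCRIBE replicate 2, 8 of the 10 lay between chr3:180980481 and chr3:180981294 at 14.3% to 25%. The 5 sites at 25% had the highest edited fractions listed for the family, and none of the 8 was listed in replicate 1. Single sites of this stretch also reached 16.7% in enzyme-only replicate 2 and in buffer-only replicate 2. The 92 nt exon at chr3:180975313-180975404 that FXR1-202 includes and FXR1-203 skips, with 17 Cs, had no edit in any library.

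FXR1 had 134 distinct edited sites, of which 115 were found in 1 library. Both RBFOX2-INSCRIBE libraries and no control held 5 of them (3.73%, against 4.33% of all distinct sites). They were the 3′ UTR sites chr3:180976890 and chr3:180977052, each edited at 1.75% on FXR1-203 in replicate 1 and at 3.33% and 3.13% on FXR1-202 in replicate 2, and the coding sites chr3:180948381, chr3:180948798 and chr3:180957928. Of these, chr3:180948381 reached 10.5% on FXR1-209 in replicate 1 and was listed for all 3 FXR1 isoforms. The site chr3:180977074, in the run of uracils shown above, was listed in 5 libraries, at 3.51% and 4.08% in RBFOX2-INSCRIBE, 3.57% in enzyme-only replicate 3, and 4.62% and 3.85% in buffer-only on FXR1-203. The values without enzyme thus reached those with it. FXR1-203 holds 2 GCAUG. Within 50 nt of the coding one, chr3:180948767-180948771, 1 and 1 Cs were edited in RBFOX2-INSCRIBE, 0 and 2 with enzyme only and 0 and 1 with buffer only. Within 50 nt of the one in the 3′ UTR at chr3:180976142-180976146, 1 and 1 Cs were edited in RBFOX2-INSCRIBE, 1 and 0 in enzyme-only and 0 and 0 in buffer-only.

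**Figure D5:**
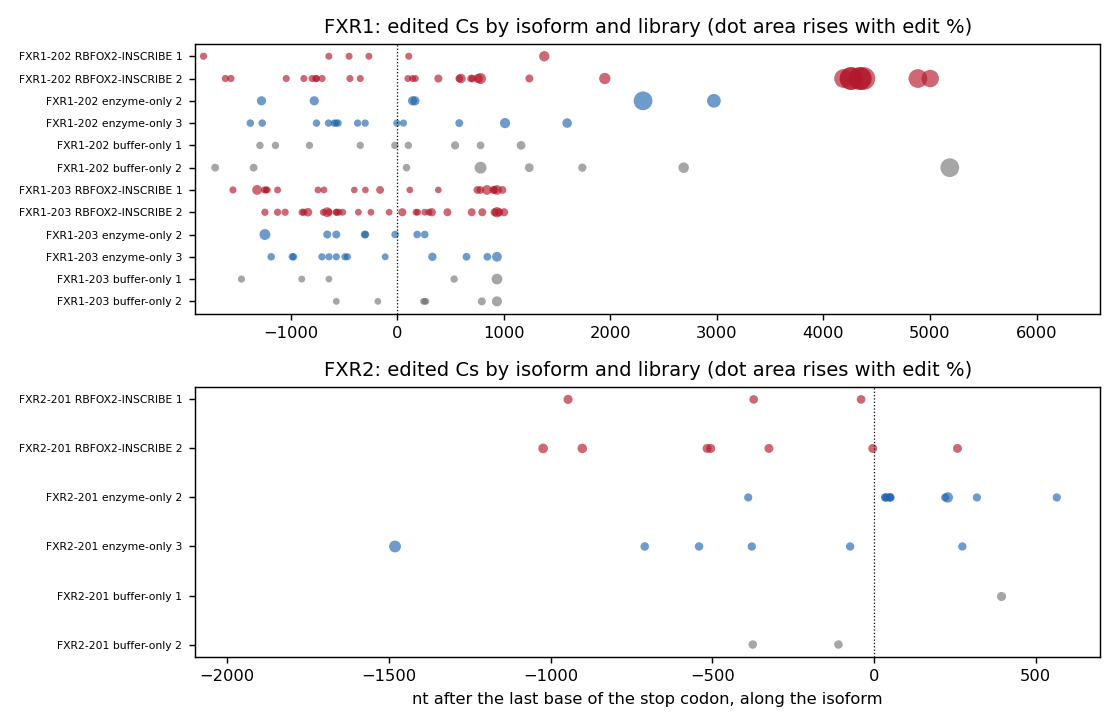
Edited Cs of the coding isoforms of FXR1 (top) and FXR2 (bottom) by distance from the end of the stop codon along the isoform (x axis, nt, negative in the coding sequence), with a row for each isoform and library and dots whose area rises with the edited fraction. FXR1-202 shows the 8 sites of 14.3% to 25% in RBFOX2-INSCRIBE replicate 2 alone, and FXR2 shows the group of 3′ UTR sites in enzyme-only replicate 2.

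FXR2 carried few edits with the antibody, and most of its 3′ UTR edits came from 1 enzyme-only library. Its only listed isoform, FXR2-201 (ENST00000250113, 2987 nt), had 0 and 1 edited Cs in the 3′ UTR in RBFOX2-INSCRIBE, 10 and 1 with enzyme only and 1 and 0 with buffer only, of 181 Cs. In its coding sequence of 534 Cs the values were 3 and 6, 1 and 5, and 0 and 2. Within the 10 sites of enzyme-only replicate 2, 6 lay between chr17:7591779 and chr17:7591796, each listed at 2.13%. All 30 distinct FXR2 sites were found in a single library, and the highest edited fraction was 5.88%, in enzyme-only replicate 3. FXR2 exons hold 0 GCAUG and 1 GCACG, near which 0 edits were listed in any library. The 3′ end of FXR2 overlaps MPDU1 on the opposite strand up to chr17:7592789, and 4 and 0, 2 and 3, and 2 and 2 further listed edits of FXR2-201 read as G-to-A on its strand and were left out.

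APOBEC1 prefers cytosines after A or U, and the edited Cs of FMR1 and FXR1 had this context. In RBFOX2-INSCRIBE, 83.3% and 84.2% of FMR1 edited Cs followed A or U, where 54.0% of its exonic Cs do. For FXR1 the shares were 79.3% and 76.4% in RBFOX2-INSCRIBE, 78.6% and 79.4% with enzyme only and 71.4% and 78.6% with buffer only, where 59.3% of its Cs do. The context thus did not tell the groups apart for FXR1, and the buffer-only libraries, which received no APOBEC1, had it as well. For FMR1 the shares were 50% and 100% with enzyme only and 60% and 83.3% with buffer only, from 10 or fewer sites per library. For FXR2, 35.4% of whose Cs follow A or U, the shares in RBFOX2-INSCRIBE were 0% of 3 sites and 71.4% of 7.

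Among genes whose products act with the fragile X proteins, none was called against enzyme-only and most were called higher against buffer-only. Of 27 partners in ribonucleoprotein and stress granules, 21 had edits and 19 were tested against enzyme-only: none was called, 18 had a log2 difference above 0, as did 85.6% of all genes, and the median was 0.95, beside 0.85 over all genes. Against buffer-only 16 of 19 were called higher, where 61.1% of all genes were, with a median of 1.90 beside 1.54. Those called include STAU2, NUFIP1, DDX6 and G3BP2, with buffer-only means of 3.5, 2, 2.5 and 3.5 edited Cs. They met the filter of a mean of 5 only through RBFOX2-INSCRIBE, and their calls carry that selection. Whether the partners differed from other genes was not tested. The 3 with the smallest p there were EIF4E, the cap-binding translation factor, CAPRIN1, a stress granule protein that binds FMRP, and PURA, a single-strand nucleic acid-binding protein of neuronal granules. EIF4E had 107 and 112 edited Cs in RBFOX2-INSCRIBE, 57 and 92 with enzyme only and 24 and 34 with buffer only (log2 difference to buffer-only 1.92, limma adjusted p = 0.000566). CAPRIN1 had 239 and 229, 77 and 148, and 53 and 67 (1.96, limma adjusted p = 0.000649). PURA had 99 and 144, 32 and 82, and 27 and 30 (2.05, limma adjusted p = 0.00223).

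Of 10 mRNAs known to be bound by FMRP, 4 had edits, and none of these passed against enzyme-only. Against buffer-only all 3 tested were called higher, where 61.1% of all genes were, with a median of 1.43 beside 1.54: PPP2CA, a phosphatase catalytic subunit (log2 difference 1.65), APP, the amyloid precursor (1.43), and MAP1B, a microtubule-associated protein (1.38), with limma adjusted p of 0.000565, 0.00077 and 0.00285. SOD1, the superoxide dismutase, was the only list member called between the controls (log2 difference 2.47, limma adjusted p = 0.0422). It had 13 and 8 edited Cs in the enzyme-only libraries, 1 and 2 in the buffer-only libraries and 7 and 1 in RBFOX2-INSCRIBE. SOD1 met the filter on mean edited Cs only through the enzyme-only libraries, with group means of 10.5 and 1.5. Its adjusted p carries that selection, and it was named after its values were seen. Between the controls 0.546% of 4209 genes were called higher, and 0 genes were called after scaling to the same total. Across the log2 editsC of 4801 genes in all 6 libraries, the genes at the shortest Euclidean distance from FMR1 were TBC1D15 (0.731), C1orf198 (0.743) and GPR27 (0.928), and those nearest to FXR1 were PDIK1L (0.461), MRPL30 (0.498) and TARBP1 (0.504). FXR2 had more distant neighbours, MALT1 (1.25), MRPS25 (1.37) and TXNL1 (1.37).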

How the data were processed

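The authors aligned PacBio consensus reads to hg38 with pbmm2, filtered them (primary, mapping quality 20 or more, matching strand), assigned those unique to an isoform with IsoQuant and called C-to-U changes with their own scripts, leaving out dbSNP positions and edits present in every sample. Per isoform and position, the deposited value is a fraction, edited reads over all reads. The annotation behind the isoforms and the minimum number of reads are not given in the sources used here, and GENCODE release 44 was used. Removal of edits common to all samples also removes true edits that all libraries share.

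An edited C was counted once per library where it lay on the strand and in an exon of its isoform. Log2 of edited Cs plus 0.5 per exonic C was tested with limma 3.58.1 in R 4.3.3 (trend, robust, Benjamini-Hochberg), for isoforms or genes averaging 5 or more edited Cs over the libraries compared, and checked on simulated data. Exact permutation tests, motif searches and shares used Python 3.11.15 with scipy 1.17.1, numpy 2.4.6, pandas 2.3.3 and matplotlib 3.10.9. Regions follow the most edited coding isoform of a gene, and edits of all its isoforms at those positions are counted. The members, the gene lists and the rules were chosen with earlier results of these data known. All listed isoforms of the 3 genes are named, with sites found in both RBFOX2-INSCRIBE libraries and no control (up to 5 per gene) and sites beside UGCAUG; list genes named are those with an adjusted p under 0.05 against enzyme-only or else the 3 with the smallest p against buffer-only, and the sixth FMR1 site, chr3:180977074, the FXR1-202 and FXR2 clusters and SOD1 were named after their values were seen. Alternatives covered the pseudocount, the filter, scaling, 3 groups in 1 fit, all listed edits, an edited fraction of at least 0.02, the replicate block, the motif window, the region rule and leaving out each library. Enzyme-only replicates are numbered 2 and 3 in the titles and 1 and 2 in the replicate field.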

Additional observations from a re-analysis of the deposited data

How the results depend on the processing

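Of 250 recomputed values of the 3 genes and their isoforms, 218 kept their direction and their side of the limma threshold, 16 lost and 5 gained a call, and 11 changed sign. Calls across all isoforms, 3 against enzyme-only, 3221 against buffer-only and 37 between the controls in the main setting, depended on the choices, and the cause was not tested. Against enzyme-only, isoforms called were 59 with pseudocount 1, 0 with 0.1 (773 at an unadjusted p under 0.05), 1 without the filter, 33 with a mean of at least 10, and 0 after scaling to the same total (436 unadjusted) or with edited fractions of at least 0.02 (212 unadjusted). Genes called, 6 in the main setting, were 30, 0 (727 unadjusted), 0 (959 unadjusted), 22, 0 (397 unadjusted) and 0 (228 unadjusted) in that order, 1 with all 3 groups in 1 fit and 1 with all listed edits. Against buffer-only, scaling left 31 isoforms and 15 of 2936 genes, and fractions of at least 0.02 left 598 and 641. Between the controls, isoforms were 24 with pseudocount 1, 8 with a mean of at least 10, 0 after scaling (358 unadjusted), 82 in the fit of 3 groups and 0 at the fraction minimum (153 unadjusted), and genes, 23 in the main setting, were 35 with pseudocount 0.1, 5, 0 (334 unadjusted), 64 and 0 (186 unadjusted).

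Leaving out 1 library gave 0 to 1856 isoforms and 0 to 1690 genes against enzyme-only (the highest without enzyme-only replicate 3), 324 to 2433 and 0 to 2318 against buffer-only, and 0 to 3 and 0 to 1 between the controls; a lone remaining library was taken to vary like the other group. With the replicate block, 66 isoforms and 28 genes were called against enzyme-only and 12 and 8 between the controls. The labels tie no replicate number to a slide shared between groups. For the replicate block and here, the enzyme-only libraries took the numbers 1 and 2 of the replicate field. Deviations of same-numbered libraries then correlated at 0.0984, 0.0373 and -0.0373, so the numbers were not taken as pairs.

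Scaling brought the median log2 difference of all genes from 0.85, 1.54 and 0.69 to 0.049, 0.10 and 0.036 in the 3 comparisons. After it, log2 differences of FXR1-202 changed sign to -0.25 against enzyme-only, -0.79 against buffer-only and -0.54 between the controls, as did FMR1-207 (-0.24) and FXR1 (-0.033) between the controls. When libraries were left out, FXR1-202 ranged from -0.58 to 1.65 against enzyme-only, -0.47 to 1.76 against buffer-only and -0.47 to 0.69 between the controls, and FMR1 from -0.88 to 0.20 between the controls, or -4 to 1 as a difference in edited Cs. The share of FMR1 edited Cs near UGCAUG, 10.3% in the main setting, was 7.28%, 13.2% and 25.5% with windows of 25, 100 and 200 nt and 11.8% at the fraction minimum. That in the 3′ UTR moved from 87.5% to 90.6% for FMR1 and from 41.9% to 66.7% for FXR1 at the fraction minimum, and to 49.1% for FXR1 by the isoform of each edit. Read depth, which is not listed here, limits every value.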
